A study of Mus musculus with 6 samples.

Results

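Interferon regulatory factors (IRFs) were followed in whole brain after systemic inflammation, as every transcript cluster whose platform annotation names Irf1, Irf2, Irf3, Irf4, Irf5, Irf7, Irf8 or Irf9 alone. Such a cluster groups the probes laid out for 1 transcribed locus. These 8 genes have 9 clusters of the 35556 on the array, since Irf1 has 2. Brains came from male C57BL/6 mice of 7 to 8 weeks that were otherwise healthy, and each mouse had its own array, with 3 mice injected i.p. with LPS from Escherichia coli at 4 mg/kg and 3 with PBS as vehicle. All 6 brains were taken 48 hours after injection, so that a single time point and a single dose stand for the response. Mice were perfused, per the methods. Whole brain RNA mixes all cell types, and more cells of a type and more RNA per cell cannot be told apart.

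IRFs are transcription factors that share a DNA-binding domain, which reads a repeated GAAA element in the promoters of interferons and of interferon-stimulated genes. Toll-like receptors and sensors of nucleic acids signal through adaptors to kinases that phosphorylate Irf3 and Irf7, which then induce type I interferon. Interferon in turn activates ISGF3, the complex of Irf9 with STAT proteins, which binds the interferon-stimulated response element (ISRE), and Irf7 is itself a known target of this complex.

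Promoter bases are shown for the IRF genes that the results turn on and for interferon-stimulated genes that rose, to set the elements beside the measurements. They are from RefSeq on GRCm38.p6, 5' to 3' on the gene's strand. Both strands of the 250 bases before each annotated start site were searched for GAAA followed by any 2 bases and another GAAA, the core of the ISRE, for TTCNNNGAA, the GAS element that STAT dimers bind, and for TATAAA, the TATA box. Over 32851 windows these letters were found in 2.98%, 7.02% and 12.4%, respectively, and the motifs may overlap one another. All 8 IRF genes matched the promoter table. The bases of Irf7 lie before the annotated gene at chr7:141266500-141266674 on the minus strand, and hold none of these motifs.
Irf7: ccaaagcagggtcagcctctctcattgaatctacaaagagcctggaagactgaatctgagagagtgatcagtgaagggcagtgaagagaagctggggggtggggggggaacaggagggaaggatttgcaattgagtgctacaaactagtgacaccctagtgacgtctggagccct
Its TATA box, in capitals, lies 29 to 24 bases before the start site, within the stretch at chr7:141266436-141266465.
Irf7, TATA box: tgcccgaagtacTATAAAagcactggcacc
Irf1 is shown for its GAS element, in capitals, within the stretch at chr11:53769764-53770013 on the plus strand.
Irf1: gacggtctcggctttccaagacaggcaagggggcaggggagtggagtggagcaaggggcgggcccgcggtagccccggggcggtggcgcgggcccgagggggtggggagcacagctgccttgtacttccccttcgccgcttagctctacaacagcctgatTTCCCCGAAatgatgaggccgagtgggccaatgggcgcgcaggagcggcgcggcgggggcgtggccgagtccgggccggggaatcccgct
Irf8 has a pair of GAS elements, in capitals, within the stretch at chr8:120736175-120736225 on the plus strand.
Irf8: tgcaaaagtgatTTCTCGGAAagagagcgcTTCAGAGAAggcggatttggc
Irf2 was the 1 of 8 IRF genes with an ISRE core, in capitals, within the stretch at chr8:46739495-46739525 on the plus strand.
Irf2: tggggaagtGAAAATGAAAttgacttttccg
The ISRE cores of Ifit1, Rsad2 and Cxcl10, in capitals, are given for comparison. They lie within the stretches at chr19:34640773-34640825 on the plus strand, at chr12:26456551-26456584 on the minus strand and at chr5:92349081-92349114 on the minus strand, respectively.
Ifit1: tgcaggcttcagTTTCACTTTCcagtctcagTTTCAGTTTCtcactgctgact
Rsad2: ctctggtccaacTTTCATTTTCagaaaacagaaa
Cxcl10: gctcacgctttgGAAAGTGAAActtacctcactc
A match is a description of letters and not of binding. GAS elements were found in 3 of 8 IRF genes (Irf1, Irf2 and Irf8) and TATA boxes in 3 of 8 (Irf4, Irf7 and Irf8). Counted by gene, 8.13% of all genes in the promoter table had a GAS element, 14.3% a TATA box and 3.46% an ISRE core.

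Levels are on the log2 scale of robust multichip average (RMA) values, where 1 unit is a doubling. Since no detection call was used, 1210 clusters of receptors for odours and pheromones, genes with little transcription in brain, stood for background. Their median lay between 5.67 and 5.81 on the 6 arrays, and their 95th percentile between 6.46 and 6.64. Levels are set against this background and not between genes, because probes differ in brightness. On the first principal component (54.5% of the variance) LPS replicates 1 and 2 lay away from the remaining 4 arrays, and their array medians were 7.09 and 7.11 against 6.95 to 6.98 in the others. Differences were tested with limma over all clusters with Benjamini-Hochberg adjustment, and a gene was called at an adjusted p under 0.05. With 3 mice per group, p-values rest on the spread between these mice, and their number limits the precision.

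**Figure D1:**
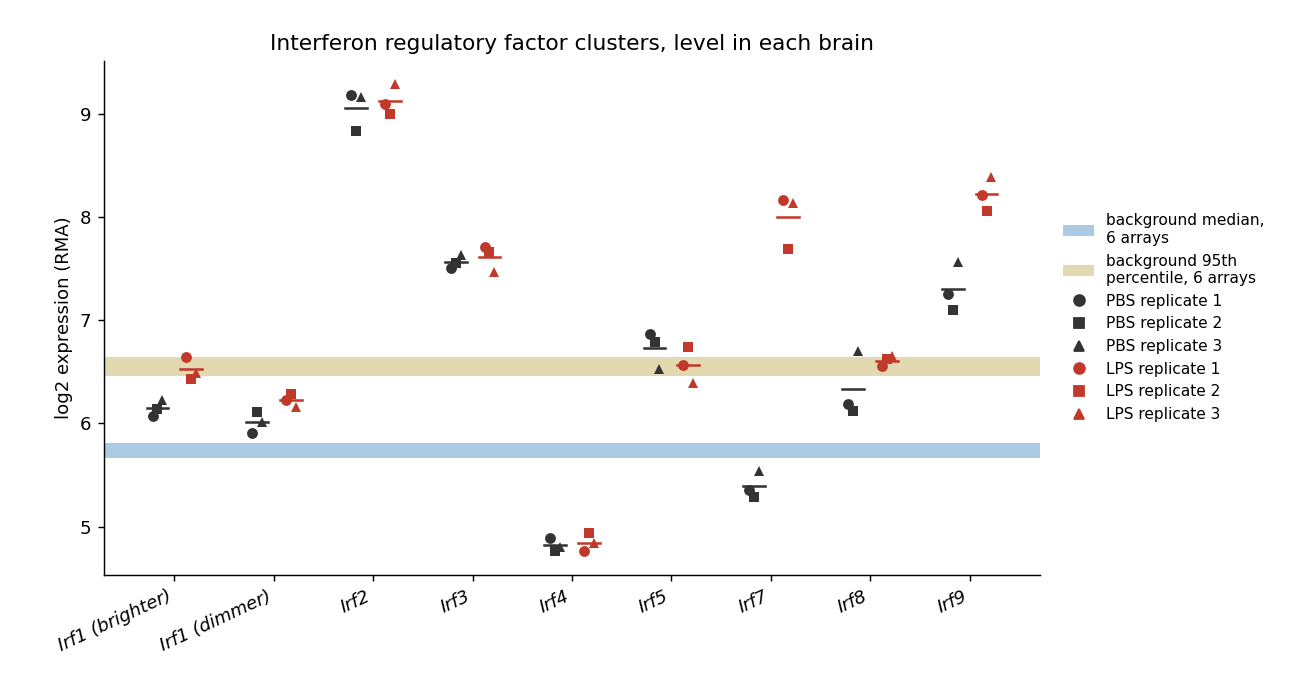
Log2 expression of the 9 IRF clusters (vertical axis) in each of the 6 brains, with PBS in dark and LPS in red. Each symbol is 1 mouse, horizontal lines are group means, and bands span the background median and 95th percentile over the 6 arrays. Irf7 moves from below the lower band in PBS to above the upper band in LPS, while Irf4 lies below both in all 6 brains.

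Irf7, the family member most closely tied to amplification of type I interferon, was the IRF gene that rose after LPS. Its level was 5.36, 5.29 and 5.53 in PBS replicates 1 to 3 and 8.17, 7.69 and 8.14 in LPS replicates 1 to 3. The groups were apart by 2.15, and LPS replicate 2 was the lowest of the LPS brains. The mean went from 5.39 ± 0.13 (SD, n = 3) to 8.00 ± 0.27 (SD, n = 3). The log2 fold change was 2.60 (SE 0.15, limma adjusted p = 0.00153), which is a fold change of 6.08 with a 95% confidence interval from 4.77 to 7.75. In all 3 PBS brains Irf7 lay below the background median, so that its size depends on the background, and the LPS mean was at least 2.79-fold higher than the 95th percentile of background in the PBS brains. Irf7 passed without each array in turn (limma adjusted p from 0.0025 to 0.0181), and did not pass the methods' t-test (adjusted p = 0.0672).

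Of the 8 IRF genes, 1 was higher, 7 did not pass and none was lower, where 0.714% of all clusters passed, 0.652% higher and 0.0619% lower. At an unadjusted limma p under 0.05, 3 IRF genes were higher (7.69% of all clusters) and none was lower (6.58% of all clusters). The methods' t-test called none of the 8, and 0.0112% of all clusters, higher. The 3 LPS brains lay above the 3 PBS brains for Irf1, Irf7 and Irf9, as they did in 9.73% of all clusters, and below them for none, as in 10.3% of all clusters. The groups overlapped for the other 5 genes. The median log2 fold change of the 8 genes was 0.17. It was -0.00093 for all clusters and -0.016 for all genes named alone, with 1 cluster each. Without LPS replicate 3 there were 2 higher, Irf7 and Irf9, while the higher clusters over the whole array went from 232 to 2640.

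**Figure D2:**
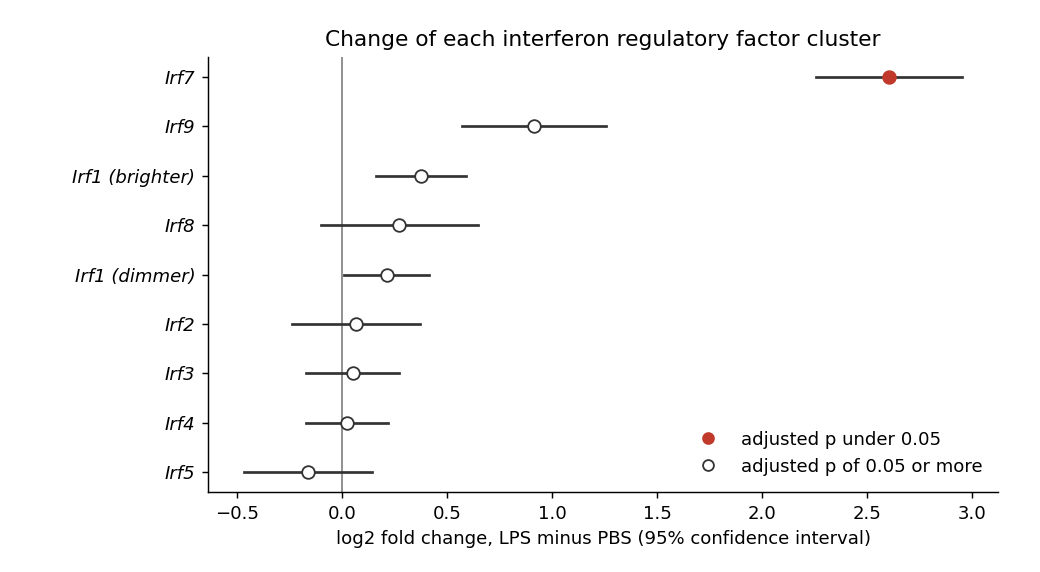
Log2 fold change of each IRF cluster, LPS minus PBS (horizontal axis), with its 95% confidence interval, ordered by size. The filled point passed an adjusted p of 0.05. Irf7 stands at 2.60, Irf9 at 0.92 has an interval from 0.57 to 1.26, and the intervals of Irf2, Irf3, Irf4, Irf5 and Irf8 include 0.

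Irf3, which is present before infection and is activated by phosphorylation, was above background in all 6 brains. Its level was 7.50, 7.55 and 7.63 in the PBS replicates and 7.71, 7.66 and 7.46 in the LPS replicates. The highest and the lowest value were both in LPS brains, and the groups overlapped. The log2 fold change was 0.05 (95% confidence interval from -0.17 to 0.27, limma adjusted p = 0.828), and its sign turned to -0.039 after centring of every array on the median. With 1 array left out it ran from 0.0028 to 0.13.

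Irf5, known for inducing inflammatory cytokines in macrophages, had 6.87, 6.79 and 6.53 after PBS and 6.57, 6.74 and 6.39 after LPS. These values lay close to the 95th percentile of background, above which were 3 PBS and 2 LPS brains. The groups overlapped, with a log2 fold change of -0.16 (95% confidence interval from -0.47 to 0.14, limma adjusted p = 0.59). It was -0.26 without PBS replicate 3 and -0.074 without LPS replicate 3, the ends of its range with 1 array left out.

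Irf9, the DNA-binding subunit of ISGF3, had 7.25, 7.10 and 7.57 after PBS and 8.21, 8.06 and 8.39 after LPS. Every brain was above the 95th percentile of background, and the groups were apart by 0.50. The mean was 7.31 ± 0.24 (SD, n = 3) after PBS and 8.22 ± 0.17 (SD, n = 3) after LPS. The log2 difference was 0.92 (SE 0.14, 95% confidence interval from 0.57 to 1.26). On the linear scale this is 1.89-fold, with an interval from 1.49 to 2.39. Irf9 missed the threshold over all clusters (limma adjusted p = 0.0555) and lay on its other side in some settings: the adjusted p was 0.0118 when only clusters that name 1 gene were tested and 0.0222 without LPS replicate 3. With any other array left out, it was from 0.0702 to 0.223.

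Irf1 and Irf2 bind the same element, Irf1 as an activator downstream of interferon gamma and Irf2 mainly as its antagonist. The brighter of the clusters of Irf1 had 6.08, 6.14 and 6.23 after PBS and 6.65, 6.43 and 6.49 after LPS. The groups were apart by 0.21, with a log2 fold change of 0.38 (SE 0.09, limma adjusted p = 0.166), which did not pass. No PBS brain and 2 LPS brains were above the 95th percentile of background, so that Irf1 was close to the limit of what the array measured. The dimmer cluster had 5.91, 6.11 and 6.01 after PBS and 6.23, 6.28 and 6.16 after LPS, which differ by 0.21 on the log2 scale (limma adjusted p = 0.328). Both clusters thus differed in the same direction without passing. Irf2 had 9.19, 8.83 and 9.17 after PBS and 9.10, 9.003 and 9.29 after LPS, all above background. The groups overlapped, and the log2 fold change was 0.07 (95% confidence interval from -0.24 to 0.37, limma adjusted p = 0.84), which turned to -0.048 without PBS replicate 2.

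Irf4 and Irf8 are the lymphoid and myeloid members of the family, and Irf8 is needed for the development of microglia. Irf8 had 6.19, 6.12 and 6.70 after PBS and 6.56, 6.62 and 6.65 after LPS. PBS replicate 3 was the highest of the 6 brains and the other PBS brains were the lowest, so that the groups overlapped. The log2 fold change was 0.27 (95% confidence interval from -0.10 to 0.65, limma adjusted p = 0.461), and 1 PBS and 2 LPS brains were above the 95th percentile of background. It depended on single PBS arrays, with 0.46 without PBS replicate 3 (limma adjusted p = 0.218) and 0.16 without PBS replicate 2 (limma adjusted p = 0.756). Irf4 had 4.89, 4.77 and 4.80 after PBS and 4.76, 4.94 and 4.84 after LPS, below the background median in all 6 brains. Its log2 fold change of 0.03 (limma adjusted p = 0.908) therefore holds no information on whether Irf4 differed.

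The genes whose pattern over the 6 brains was most like that of Irf7, of 19937 other named genes, were Gm12250, Usp18 and Emcn, with Pearson r of 0.997, 0.997 and 0.996. Usp18 encodes a protease that removes ISG15 and dampens interferon signalling, and Emcn encodes endomucin of endothelial cells. Their log2 fold changes were 0.44, 1.91 and 1.08, and Gm12250 did not pass (limma adjusted p = 0.059). A value of r over 0.95 was found for 257 genes, and this measure is high for any gene whose groups are far apart.

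The genes that act before, with and after the IRFs were taken as 8 lists with 96 measured genes, the IRFs themselves not counted. Of these genes 20 were higher, 76 did not pass and none was lower, where 0.652% of all clusters were higher. The median log2 fold change was 0.21. Without PBS replicates 1, 2 and 3 in turn the higher genes numbered 11, 10 and 12. They numbered 13, 14 and 27 without LPS replicates 1, 2 and 3. The higher clusters over the whole array moved the same way, from 232 to 79, 74 and 87 without the PBS replicates and to 110, 114 and 2640 without the LPS replicates. The share of 0.652% of all clusters also stands beside the count of higher genes in each list below.

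**Figure D3:**
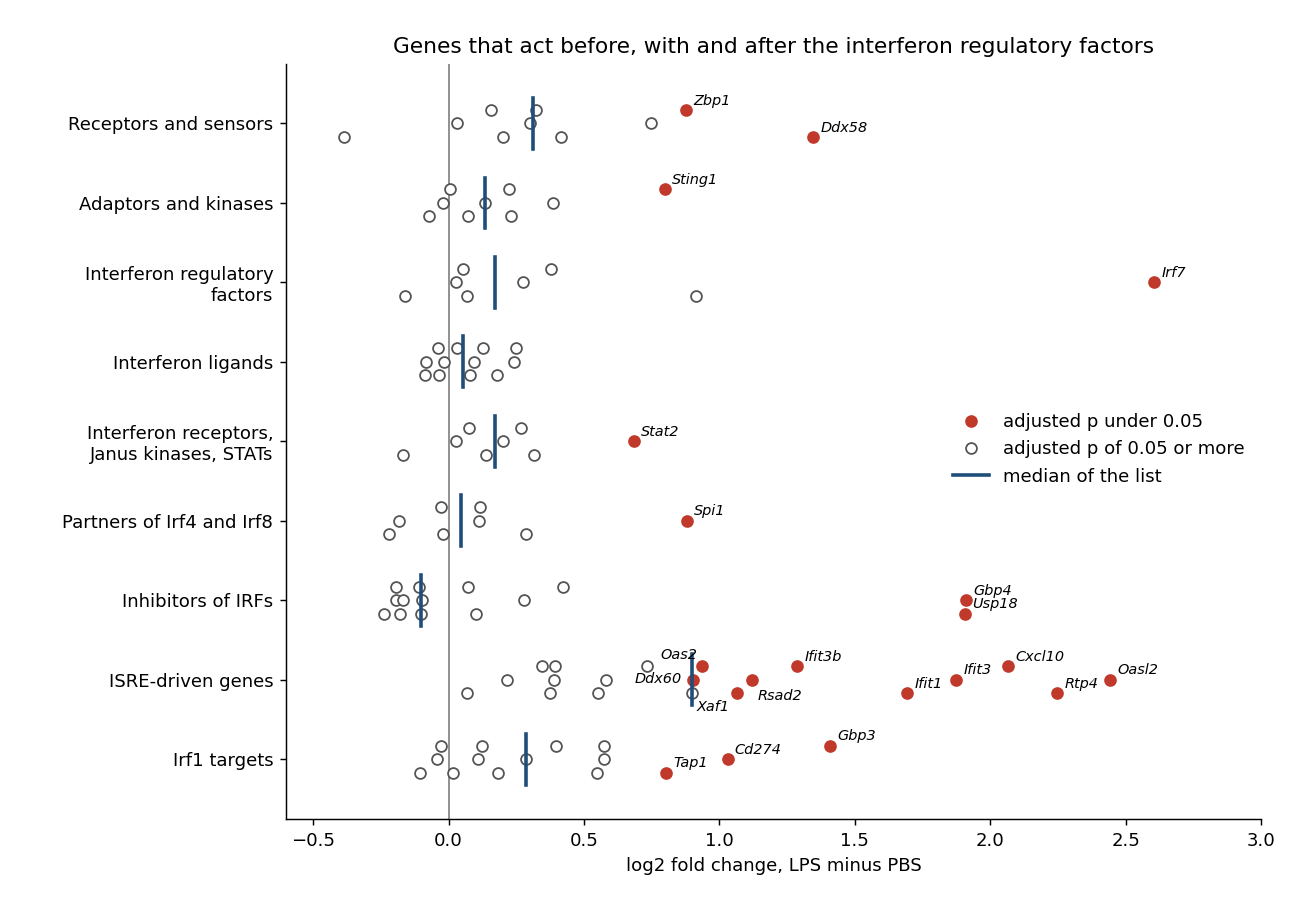
Log2 fold change, LPS minus PBS (horizontal axis), of every measured gene in the IRF family and in 8 lists of genes around it, with 1 point a gene. Filled points passed an adjusted p of 0.05 and carry their symbols, and bars are list medians. Genes listed for an ISRE lie farthest to the right, with a median of 0.90, and 10 of 20 are filled, whereas no interferon ligand is. Of all clusters on the array, 0.652% were higher.

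Among 10 receptors and sensors that signal to IRFs, 2 were higher and 8 did not pass, with a median log2 fold change of 0.31. Ddx58, which encodes the RNA sensor RIG-I, had 7.28, 7.56 and 7.69 after PBS and 8.90, 8.73 and 8.93 after LPS. The groups were apart, and it rose by a log2 fold change of 1.35 (limma adjusted p = 0.00713). Zbp1, a sensor of Z-form nucleic acids, rose by 0.88 on the log2 scale (limma adjusted p = 0.0255), from values below the 95th percentile of background in all PBS brains. Tlr4, the receptor for LPS itself, had 6.05, 5.54 and 5.72 after PBS and 6.16, 5.88 and 6.18 after LPS. These values were under the 95th percentile of background in all 6 brains, and the log2 fold change of 0.30 did not pass (limma adjusted p = 0.407). The call of Ddx58 ended without PBS replicate 2 (limma adjusted p = 0.0565), and that of Zbp1 ended when any PBS array or LPS replicate 2 was left out (adjusted p up to 0.133). Zbp1 also did not pass after quantile normalization (limma adjusted p = 0.0575) or after centring of every array on the median (limma adjusted p = 0.0753), which left 1 higher gene in this list.

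Of 9 adaptors and kinases that activate IRFs, 1 was higher and 8 did not pass, with a median of 0.14. Sting1, the adaptor that links cytosolic DNA sensing to Irf3, had 6.94, 6.99 and 6.90 after PBS and 7.72, 7.72 and 7.79 after LPS. The brains of each group were close together, and Sting1 rose by 0.80 on the log2 scale (limma adjusted p = 0.00664). Tbk1, the kinase of Irf3 and Irf7, had a log2 fold change of -0.02 (limma adjusted p = 0.945) at levels from 8.93 to 9.21 over the 6 brains. Ikbke, the related kinase, lay under the 95th percentile of background in all 6 brains, with a log2 fold change of 0.23 (limma adjusted p = 0.362). The call of Sting1 ended without PBS replicate 1 or PBS replicate 3 (limma adjusted p up to 0.0545).

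Of 12 interferon ligand genes none was called by limma, nor by the methods' t-test. At an unadjusted limma p under 0.05, 1 of them was higher, as were 7.69% of all clusters. The log2 fold changes of the 12 genes ran from -0.08 to 0.25, and 8 of them were above the 95th percentile of background in no PBS brain. Ifnb1, which encodes interferon beta, had 5.31, 5.53 and 5.37 after PBS and 5.25, 5.45 and 5.47 after LPS, below the background median in all 6 brains. Ifna2, Ifna4, Ifna5, Ifna9, Ifna12 and Ifna14 had log2 fold changes from -0.04 to 0.24, and since Ifna genes are near-identical, their probes may share signal and the values are uncertain. At these levels a difference in interferon transcripts was not measurable for most of these genes.

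Of 8 genes of interferon receptors, Janus kinases and STATs that act with Irf9, 1 was higher and 7 did not pass, with a median of 0.17. Stat2, the partner of Irf9 in ISGF3, had 8.17, 8.15 and 8.20 after PBS and 8.90, 8.90 and 8.77 after LPS. The groups were apart, and Stat2 rose by 0.69 on the log2 scale (limma adjusted p = 0.0141). Its call held with LPS replicate 3 left out and ended with any other array left out (limma adjusted p up to 0.095).

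Of 8 partners that bind DNA with Irf4 or Irf8, 1 was higher and 7 did not pass, with a median of 0.04. Spi1, which encodes PU.1 of myeloid cells, had 6.80, 6.78 and 6.58 after PBS and 7.51, 7.52 and 7.78 after LPS. It rose by 0.88 on the log2 scale (limma adjusted p = 0.0217), while the groups of its partner Irf8 overlapped, as given above. The difference between these changes was not tested. The call of Spi1 likewise ended with any array other than LPS replicate 3 left out (limma adjusted p up to 0.109), after quantile normalization (adjusted p = 0.0665) and after centring of every array on the median (adjusted p = 0.0737).

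Of 14 genes listed as inhibitors of IRF activity, level or translation, 2 were higher, 12 did not pass and none was lower. The median of -0.10 had the opposite sign to the changes of those that rose. The LPS brains lay below the PBS brains for 5 of the 14, against 10.3% of all clusters. They lay above them for 3, against 9.73% of all clusters. Gbp4, a guanylate-binding protein known to inhibit Irf7, had 5.61, 5.50 and 5.71 after PBS and 7.40, 7.75 and 7.40 after LPS. It rose by 1.91 on the log2 scale (limma adjusted p = 0.00199). Usp18, which as given above dampens interferon signalling, had 6.10, 6.08 and 6.45 after PBS and 8.19, 7.87 and 8.29 after LPS. Its log2 fold change was 1.91 (limma adjusted p = 0.00405). Both were below the 95th percentile of background in all PBS brains, so that their fold changes depend on it, and both passed without each array in turn. Irf2bp2, a corepressor that binds Irf2, had a log2 fold change of -0.18 (limma adjusted p = 0.456).

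Of 20 genes listed for ISREs and known to be induced by ISGF3, Irf3 or Irf7, 10 were higher, 10 did not pass and none was lower. Over all clusters, 0.652% were higher. The median log2 fold change of the 20 genes was 0.90. The LPS brains were above the PBS brains for 18 of them, as in 9.73% of all clusters. Ifit1, which encodes an RNA-binding antiviral protein, had 7.25, 7.29 and 7.40 after PBS and 8.97, 8.91 and 9.15 after LPS. It rose by 1.69 on the log2 scale (limma adjusted p = 0.00152). Oasl2, of the oligoadenylate synthetase family, rose by 2.44 (limma adjusted p = 0.00153), from 6.90 to 7.07 in the PBS brains to 9.24 to 9.73 in the LPS brains. Rtp4, a receptor transporter protein, rose by 2.25 (limma adjusted p = 0.00172). Ddx60, a helicase that aids RIG-I, rose by 0.90 (limma adjusted p = 0.00426), although it was under the 95th percentile of background in all 6 brains, as was Oas2. Xaf1, Rsad2, Ifit3, Cxcl10, Oas2 and Ifit3b were also higher, and 5 of the 10 higher genes were above the 95th percentile of background in no PBS brain. Ifit3 and Ifit3b are close copies, and their probes may share signal. Without PBS replicate 2 the higher genes numbered 6. Oas2 and Ifit3b did not pass with any array other than LPS replicate 3 left out (limma adjusted p up to 0.171), nor did Ifit3b after quantile normalization or centring (adjusted p up to 0.0659), Cxcl10 did not with any PBS array or LPS replicate 1 left out (adjusted p up to 0.0832), and Ifit3 did not without PBS replicate 2 (adjusted p = 0.0614).

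The ISRE core shown above for Ifit1, Rsad2 and Cxcl10 was found in 9 of the 15 ISRE list genes that matched the promoter table, or 60%, against 3.46% of all genes there. It was in 6 of 8 matched genes that were higher and in 3 of 7 that did not pass. Since the list was drawn up for genes taken to carry the element, these shares describe the list.

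Of 15 genes known as targets of Irf1, 3 were higher, 12 did not pass and none was lower, with a median of 0.29. Gbp3, a guanylate-binding protein, had 6.20, 5.98 and 6.15 after PBS and 7.59, 7.43 and 7.55 after LPS. It rose by 1.41 on the log2 scale (limma adjusted p = 0.00209). Cd274, which encodes the checkpoint ligand PD-L1, rose by 1.03 (limma adjusted p = 0.00899). Tap1, a peptide transporter for MHC class I, rose by 0.80 (limma adjusted p = 0.0281). All 3 were under the 95th percentile of background in all PBS brains, and Tap1 in all LPS brains too. The call of Cd274 ended without PBS replicate 1, PBS replicate 2 or LPS replicate 1 (limma adjusted p up to 0.0694), and that of Tap1 with any array other than LPS replicate 3 left out (adjusted p up to 0.136).

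All 6 neuron markers and all 7 markers of astrocytes and oligodendrocytes that were measured lay above the 95th percentile of background in all 6 brains, and none of either list passed limma. At an unadjusted limma p under 0.05, none of the neuron markers differed, and 1 marker of astrocytes and oligodendrocytes was higher and 1 lower. Over all clusters, 7.69% were higher at this p and 6.58% lower. Markers of the cell types in which IRFs act were measured in the same brains. Of 6 endothelial markers 5 were higher, where 0.652% of all clusters were. The mean level of the 6 markers was 7.37 to 7.52 in the PBS brains and 8.32 to 8.49 in the LPS brains. At an unadjusted limma p under 0.05 all 6 were higher, as were 7.69% of all clusters. Of 11 microglia markers 1 was higher (Olfml3, log2 fold change of 0.89), and their mean level was 8.09 to 8.23 after PBS and 8.22 to 8.58 after LPS, which overlap. At an unadjusted limma p under 0.05, 4 of the 11 were higher (Olfml3, Cx3cr1, Csf1r and Tyrobp), each with the groups apart, where 7.69% of all clusters were higher. Of 5 blood monocyte markers 1 was higher (Fn1, log2 fold change of 0.82), with a mean level of 7.16 to 7.37 after PBS and 7.45 to 7.49 after LPS, and 2 were higher at an unadjusted limma p under 0.05. The log2 fold changes of F13a1, Plac8, Vcan and Ccr2 were 0.43, 0.18, -0.04 and -0.29, so that the list was mixed. Of the 5, only Fn1 and Vcan were above the 95th percentile of background in all 6 brains. None of 8 dendritic cell, 6 B cell, 7 T and NK cell and 9 neutrophil markers passed limma. At an unadjusted limma p under 0.05 there were 1, 1, 2 and 1 higher in these lists, and 2 dendritic cell markers lower. Over all clusters 7.69% were higher and 6.58% lower. The B cell and neutrophil markers were above the 95th percentile of background in none of the 6 brains. The same held for the dendritic, T and NK cell markers in these counts (Itgax, Clec9a, Cd209a, Gzma and Cd3e). The part of these cell types in the changes of Irf7 and of the genes listed for ISREs was not tested.

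**Figure D4:**
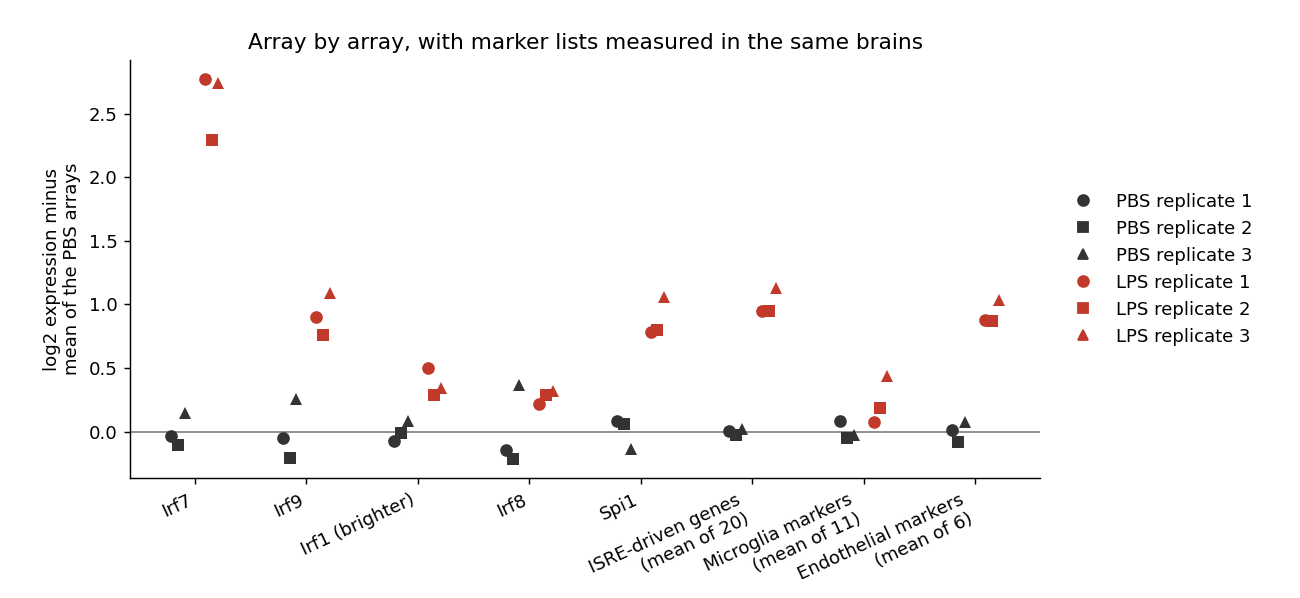
Difference in log2 expression from the PBS mean (vertical axis) for Irf7, Irf9, Irf1, Irf8 and Spi1, and for the mean of 20 genes listed for ISREs, 11 microglia markers and 6 endothelial markers. Each symbol is 1 mouse. The LPS brains stand at 0.95, 0.95 and 1.13 for genes listed for ISREs, 0.88, 0.87 and 1.04 for endothelial markers and 0.08, 0.18 and 0.43 for microglia markers.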

How the data were processed

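Total RNA of 6 brains, each from 1 mouse, was measured on Affymetrix Mouse Gene arrays. The authors deposited log2 values made by RMA, adjusted for GC content in Partek Genomics Suite, which were used unchanged. The methods also describe RMA in GeneSpring, and the study's lists of fold changes identify the Partek values. Nothing further was normalized or filtered, and signal over background per probe was not analysed here.

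Clusters were named from the platform annotation, and only those that name 1 gene were given its name. Where a gene has several, the cluster with the highest mean stood for it. LPS and PBS arrays were compared in R 4.3.3 by limma 3.58.1 (functions lmFit and eBayes). Tests were two-sided, and p-values of all 35556 clusters were adjusted together after Benjamini-Hochberg. Figures and the motif search used Python 3.11.15. The procedure was tested on simulated data.

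The IRF genes, the lists and the tests were chosen with earlier results of these data known. All IRF clusters are named, together with list members that passed (values for up to 4 a list), a few fixed genes and the 3 genes most like Irf7. Of 108 list symbols 96 were measured. Alternatives covered the test, variance model, array weights, normalization, filter, threshold, block and each array left out. Leaving out LPS replicates 1 and 2 together was chosen after the data were seen.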

Additional observations from a re-analysis of the deposited data

How the results depend on the processing

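The count of higher IRF genes was 1, and it was 0 by the methods' t-test, 3 with array weights, and 2 each without the 40% of clusters with the lowest mean, with clusters that name 1 gene and at an adjusted p under 0.1. With 1 array left out it ranged from 1 to 2. The count of higher pathway genes was 20, and it was 0 by the methods' t-test, 35 with array weights (with 2 lower), 9 without LPS replicates 1 and 2 together, and from 10 to 27 with 1 array left out. With array weights 4751 of all clusters were higher, and the methods' t-test called 4. With the replicate number as a block (replicate block) 1 IRF gene and 10 pathway genes were higher. After each group's mean was subtracted from every cluster, arrays that share a number had correlations of 0.09, -0.05 and 0.10. The labels do not say whether the numbers pair the arrays, and pairing was not tested. With the 90th percentile of background 7 IRF clusters, in place of 4, were above it in all LPS brains. Signs turned for genes near 0 that did not pass. Irf2 was -0.024 with centred arrays and from -0.048 to 0.13 with 1 array left out. Irf3 was -0.019 after quantile normalization, -0.039 with centred arrays and -0.10 without LPS replicates 1 and 2. Irf4 was -0.055 with array weights, -0.065 with centred arrays and from -0.019 to 0.069 with 1 array left out. Ifnb1 was 0.064 without LPS replicates 1 and 2 and from -0.061 to 0.055 with 1 array left out. Tbk1 was 0.11 with array weights and from -0.10 to 0.039 with 1 array left out. Irf7 passed in 9 of 10 settings that kept all arrays and Irf9 in 3 of 10. Centring moved the median of all clusters to -0.09. The causes were not tested. Signal near background limits what can be said of Irf1, Irf4, Irf8 and the interferon genes.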
